A study of Mus musculus with 6 samples.

Results

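The genes described here mark the nerve cells, the supporting glia and the pacemaker cells of the bowel wall, together with the signals that build and maintain them. They are 33 listed genes, all of which were found by symbol among the 55487 gene identifiers of the deposited table. By role, 20 are neuron genes, 6 encode growth factors, an endothelin or their receptors, 4 are glia genes and 3 are pacemaker cell genes. The RNA came from terminal ileum, the last stretch of the small intestine, of 9-day-old C57BL/6 mice, with 3 NEC libraries and 3 control libraries. NEC is necrotizing enterocolitis, an inflammatory injury of the newborn bowel. In the mice it was brought about by gavage of hyperosmolar formula, by hypoxia at 5% O2 for 10 min 3 times a day over 4 days, and by lipopolysaccharide, a bacterial wall component, fed at a daily 4 mg/kg on days 6 and 7 after birth. The control labels carry the same treatment text, so how the controls were fed and handled is not stated. Nor do they state whether each library is a different animal, so the p-values speak only of the spread among these 6 libraries, which may be technical in part.

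The enteric nervous system is a network of neurons and glia in layers between and beneath the muscle coats of the bowel, and it arises from neural crest cells that migrate along the gut. The receptor RET with its ligand GDNF, and the endothelin receptor EDNRB with its ligand endothelin 3, drive that migration and the growth of the precursors, and loss of either pathway leaves bowel without neurons. Interstitial cells of Cajal are not neurons. They carry the receptor KIT and the chloride channel ANO1 and set the slow electrical rhythm of the muscle.

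Values are FPKM, fragments scaled to transcript length and library depth, and log2 differences are NEC minus control on log2(FPKM + 1). The libraries held an estimated 16.9 to 18.7 M fragments in NEC and 15.2 to 16.2 M in control. NEC 1 stood apart: across genes it correlated at 0.942 with NEC 2 and 0.932 with NEC 3, against 0.972 between NEC 2 and NEC 3 and 0.975 to 0.978 among controls. Its values summed to 628698 FPKM over all genes, against 394613 to 450361 in the other libraries. It had 13461 genes at 1 FPKM or more, against 14541 and 14882 in NEC 2 and 3 and 16290 to 16702 in the controls. Its 16 smooth muscle genes summed to 202 FPKM, against 875 and 899 in NEC 2 and 3 and 1020 to 1250 in the controls. Markers of the gut lining were present: all 14 listed epithelial genes were above 1 FPKM on average, and Vil1, the brush border protein villin, stood at 274 to 288 FPKM in NEC and 156 to 175 in control. The samples were bulk RNA of tissue, so fewer cells of a type and less RNA per cell cannot be told apart in any value below.

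Upstream sequences of 4 genes that the results turn on are shown because Prph, Kit and Nrtn fell in NEC under each alternative that tested them, while Vip, a transmitter gene, did not pass. They come from RefSeq on GRCm38.p6, run 5′ to 3′ on the strand of the gene, and stop before the RefSeq start, or earlier where a GENCODE exon begins. The Kit stretch was shortened to 179 bases for that reason. Capitals mark matches to TATAAA (the TATA box), GGGCGG (the GC box, CCGCCC on the other strand) or TGACGT (a core of the cAMP response element).
Prph, chr15:99054924-99055173, plus strand: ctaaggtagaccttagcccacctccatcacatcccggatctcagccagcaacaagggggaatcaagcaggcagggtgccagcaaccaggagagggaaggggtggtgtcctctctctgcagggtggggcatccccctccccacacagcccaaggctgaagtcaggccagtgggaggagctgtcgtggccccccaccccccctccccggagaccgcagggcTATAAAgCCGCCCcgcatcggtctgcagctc
Kit, chr5:75574737-75574915, plus strand: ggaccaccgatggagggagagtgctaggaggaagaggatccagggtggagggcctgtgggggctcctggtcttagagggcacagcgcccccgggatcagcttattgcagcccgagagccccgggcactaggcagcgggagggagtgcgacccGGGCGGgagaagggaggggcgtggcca
Nrtn, chr17:56757549-56757798, minus strand: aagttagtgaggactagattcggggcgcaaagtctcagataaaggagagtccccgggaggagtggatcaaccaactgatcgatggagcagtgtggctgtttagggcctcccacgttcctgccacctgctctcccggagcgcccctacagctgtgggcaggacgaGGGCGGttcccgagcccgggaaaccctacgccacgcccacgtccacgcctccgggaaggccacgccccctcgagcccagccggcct
Vip, chr10:5638968-5639217, plus strand: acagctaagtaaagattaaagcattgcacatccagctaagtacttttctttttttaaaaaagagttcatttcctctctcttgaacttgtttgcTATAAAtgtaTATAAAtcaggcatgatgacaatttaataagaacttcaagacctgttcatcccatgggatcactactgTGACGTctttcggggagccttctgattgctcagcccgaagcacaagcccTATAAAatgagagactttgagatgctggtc
Positions are counted from the RefSeq transcript start, which for Kit lies downstream of the end of the printed stretch. Prph had TATAAA from -31 and a GC box from -24. Vip had TATAAA from -30, -147 and -157 and TGACGT from -79, while the GC box lay at -98 in Kit and -86 in Nrtn. Of the 33 genes, 26 had such a window in the table, and none is shown for Nefl, Nefm, Sox10, Ret, Stmn2, Snap25 and Gap43. Searched on both strands over the 250 bases before the RefSeq start, without that shortening, TATAAA lay in 5 of 26 windows and in 13.0% of all 27025 windows. GGGCGG lay in 12 of 26 and 32.9%, TGACGT in 6 of 26 and 6.56%, and ACAAAG, a SOX-type site, in 1 of 26 and 16.5%. None of the printed matches overlaps another, and they describe the letters only.

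Most of the measurable genes were lower in NEC ileum. Of the 33 genes, 21 had a mean of at least 1 FPKM and were tested, and of these 17 fell, 0 rose and 4 did not pass (limma, Benjamini-Hochberg over 15806 genes, adjusted p under 0.05). Among all tested genes 30.6% fell and 7.69% rose. The median log2 difference was -0.72 over the 21 genes and -0.26 over all tested genes. In 20 of the 21 every NEC library lay below every control, the exception being Ret, and 47.3% of all tested genes had that order, with 11.8% the reverse. NEC 1 was the lowest of the 6 libraries for 18 of the 21 genes, as it was for 56.1% of all tested genes.

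The count depended on the scale and on single libraries. TMM scaling, which sets the middle of all genes to a common level, left 13 lower and 1 higher, with 14.1% of all genes lower and 16.9% higher, and quantile normalization left 9 lower, with 15.1% of all genes. It was 19 of 23 genes without NEC 1 and 11 without NEC 2. It was 6 without control 1, 6 without control 2 and 11 without control 3. In the same order 33.5%, 18.7%, 6.73%, 5.9% and 12.7% of all genes were then lower. The calls of 6 genes, Uchl1, Nefl, Prph, Nrtn, Kit and Etv1, held in each alternative that tested them.

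**Figure D1:**
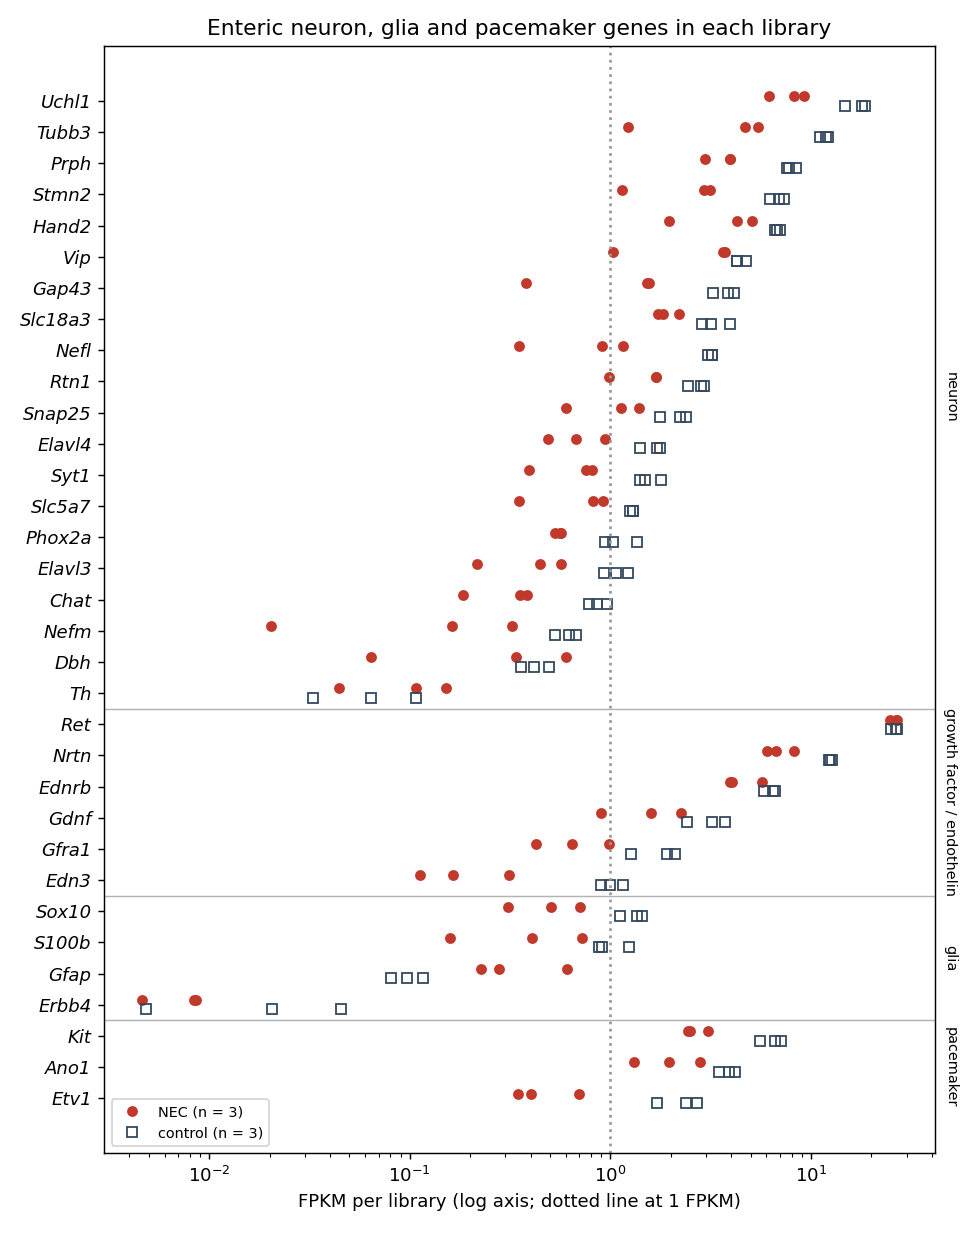
FPKM of the 33 genes in each of the 6 libraries on a log axis, NEC libraries and controls in 2 colours, with a dotted line at 1 FPKM and the genes grouped by role. The NEC points lie below the control points for 28 genes and above them for 1, Gfap, and overlap for Ret, Th, Dbh and Erbb4.

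Neuron genes were 13 of the 21 genes tested and 11 of the 17 that fell, from 20 listed. Their median log2 difference was -0.78, and Hand2 and Vip did not pass. Without control 1, 2 and 3 the count was 3, 3 and 7. Uchl1, a ubiquitin hydrolase abundant in nerve cell bodies (chromosome 5, 66676091 to 66687234), had 6.16, 8.19 and 9.24 FPKM in NEC and 17.9, 18.5 and 14.7 in control. The highest NEC library was well below the lowest control, a log2 difference of -1.03 (SE 0.16, adjusted p = 0.0082, limma). Elavl4, which encodes the neuronal RNA-binding protein HuD, had 0.487, 0.674 and 0.941 FPKM in NEC and 1.70, 1.77 and 1.41 in control (log2 -0.63, SE 0.14, adjusted p = 0.0179, limma). Its relative Elavl3 was under the limit for testing, at 0.216 to 0.568 FPKM in NEC and 0.927 to 1.22 in control. Tubb3, the neuronal tubulin (chromosome 8, 123411424 to 123422015), had 1.22, 4.68 and 5.42 FPKM in NEC and 11.9, 12.1 and 11.1 in control. All NEC values were under every control, with NEC 1 far below the other two, and the log2 difference was -1.55 (SE 0.38, adjusted p = 0.0233, limma). The annotation places the gene Gm20388 over Tubb3 on the same strand.

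Of the transcription factors that specify enteric neurons, Hand2 did not pass and Phox2a was too low to be tested, and both were below the controls in every NEC library. Hand2 (chromosome 8, 57320983 to 57324633) had 1.96, 4.26 and 5.06 FPKM in NEC and 6.97, 6.65 and 6.77 in control, which is about 78, 182 and 222 fragments against 256, 238 and 258. The log2 difference was -0.78 (SE 0.26, adjusted p = 0.0535, limma), and without NEC 1 it was -0.47 and passed (adjusted p = 0.0112). Phox2a, a factor needed by autonomic neurons, was untested, at 0.530 to 0.570 FPKM in NEC and 0.944 to 1.35 in control, and NEC 1 was not the lowest NEC library. Without control 1 or control 2 the calls of Elavl4 and Tubb3 were lost, at adjusted p up to 0.0744 and 0.0776. The Elavl4 call was also lost without NEC 2 (0.0501) and with quantile normalization (0.102), and that of Tubb3 without control 3 (0.0654).

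Of the 3 listed genes of acetylcholine handling, Slc18a3 was called lower and Chat and Slc5a7 were too low to be tested. Slc18a3, which loads acetylcholine into vesicles, had 1.84, 1.73 and 2.20 FPKM in NEC and 3.16, 3.95 and 2.86 in control, about 75, 76 and 99 fragments against 119, 145 and 112. Its log2 difference was -0.56 (SE 0.13, adjusted p = 0.0215, limma), a call lost with TMM scaling (0.1), quantile normalization (0.203), and without NEC 2, control 1 or control 2 (up to 0.0814). Chat, the enzyme that makes acetylcholine, was at 0.184 to 0.384 FPKM in NEC and 0.784 to 0.964 in control. Slc18a3 lies inside Chat (chromosome 14, 32408203 to 32465989) on the same strand, so the split of their reads is uncertain. Slc5a7, the choline transporter, had 0.352, 0.817 and 0.918 FPKM in NEC and 1.26, 1.3 and 1.3 in control. In these 3 genes the groups did not overlap.

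Vip, a relaxing peptide of the bowel wall, differed mainly in 1 library. It had 1.03, 3.63 and 3.71 FPKM in NEC and 4.27, 4.75 and 4.30 in control, a log2 difference of -0.62 (SE 0.32, adjusted p = 0.166, limma). Without NEC 1 it was -0.22 (adjusted p = 0.0685). The catecholamine genes were near 0 in both groups. Th, tyrosine hydroxylase, was at 0.0445 to 0.152 FPKM in NEC and 0.033 to 0.108 in control, and Dbh, which makes noradrenaline, at 0.0643 to 0.603 in NEC and 0.357 to 0.492 in control. Both overlapped between the groups.

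Snap25 and Syt1, both of synaptic vesicle release, were called lower. Snap25, a fusion protein of vesicles, had 0.6, 1.13 and 1.39 FPKM in NEC and 2.38, 2.22 and 1.76 in control (log2 -0.63, SE 0.18, adjusted p = 0.0332, limma). Syt1, the calcium sensor of release, had 0.395, 0.760 and 0.807 FPKM in NEC and 1.78, 1.49 and 1.40 in control (log2 -0.64, SE 0.14, adjusted p = 0.019, limma). Neither overlapped between groups. Both calls were lost with quantile normalization (0.168 and 0.0951), and Snap25 also with TMM scaling (0.0725), with no filter (0.0601) and at a pseudocount of 0.01 (0.0504). Without 1 control the adjusted p reached 0.111 for Snap25 (control 1) and 0.0686 for Syt1 (control 2), and without control 3 it was 0.0615 and 0.0515. Without control 1, Syt1 was under the limit for testing, and without NEC 2 Snap25 did not pass (0.0666).

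Of the cytoskeletal and axonal genes below, Nefl, Prph, Stmn2, Gap43 and Rtn1 were called lower and Nefm was untested. Nefl had the lowest share of the control mean of the 20 neuron genes. Nefl, the light neurofilament (chromosome 14, 68083863 to 68089095), had 0.350, 0.912 and 1.16 FPKM in NEC and 3.07, 3.21 and 3.21 in control, or 20, 56 and 73 fragments against 162, 165 and 176. The NEC mean was 25.5% of the control mean, and the log2 difference was -1.23 (SE 0.18, adjusted p = 0.00743, limma). Nefm, the medium neurofilament, was untested at 0.0204 to 0.324 FPKM in NEC and 0.531 to 0.672 in control. The annotated spans of Nefl and Nefm overlap on opposite strands, and the strand setting of the counting is not given in the sources used here.

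Prph, an intermediate filament of peripheral neurons (chromosome 15, 99055174 to 99058978), had 2.98, 3.96 and 3.93 FPKM in NEC and 7.74, 8.39 and 7.60 in control, with little spread in either group. Its log2 difference was -0.95 (SE 0.12, adjusted p = 0.0052, limma). Stmn2, a tubulin-binding protein of growing axons, had 1.14, 2.93 and 3.14 FPKM in NEC and 6.94, 7.33 and 6.25 in control (log2 -1.26, SE 0.26, adjusted p = 0.0145, limma). Gap43, a growth cone protein, had 0.379, 1.52 and 1.55 FPKM in NEC and 4.14, 3.86 and 3.26 in control (log2 -1.20, SE 0.25, adjusted p = 0.016, limma). In both genes every NEC library was below every control, with NEC 1 the lowest. Rtn1, a membrane protein of the endoplasmic reticulum in neurons, had 0.982, 1.69 and 1.68 FPKM in NEC and 2.94, 2.83 and 2.44 in control (log2 -0.62, SE 0.15, adjusted p = 0.0235, limma). The Stmn2 and Gap43 calls were lost without control 1 or control 2 (adjusted p up to 0.0602 and 0.063). The Rtn1 call was lost without any 1 control (up to 0.0867) and with quantile normalization (0.099).

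**Figure D2:**
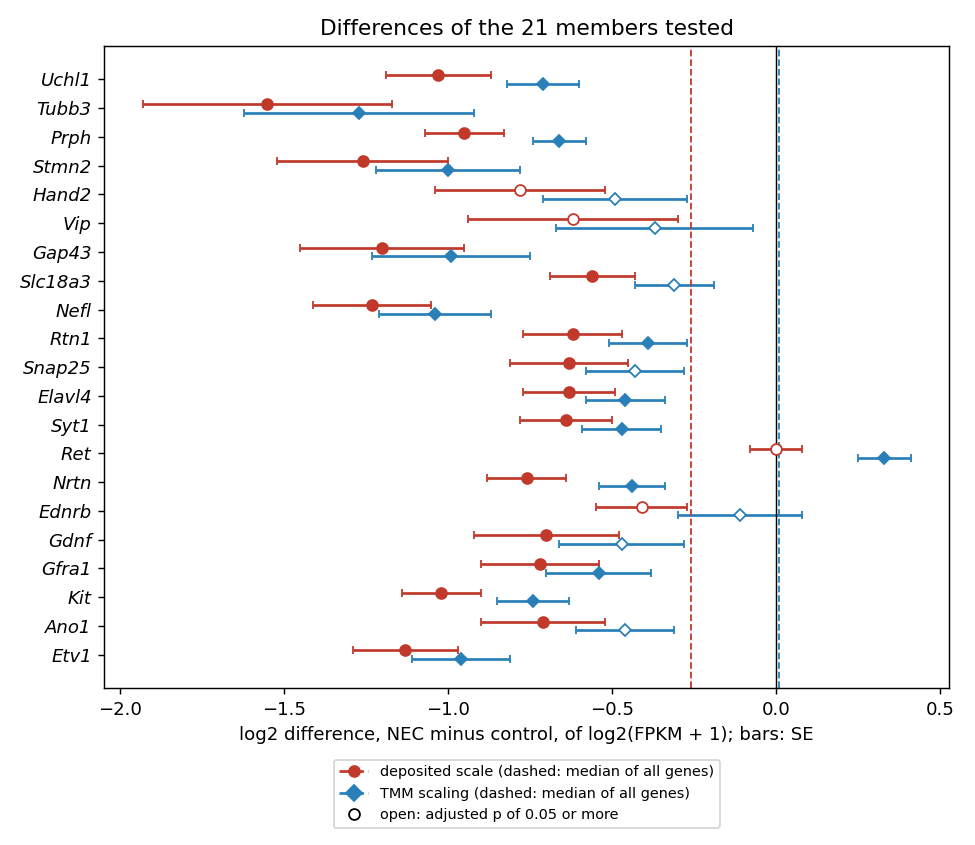
Log2 difference, NEC minus control, with its SE, of the 21 genes tested, on the deposited scale and after TMM scaling. Filled marks have an adjusted p under 0.05, and dashed lines give the median of all tested genes, -0.26 and 0.01. Ret sits at 0 on the deposited scale and at 0.33 after TMM scaling, while Tubb3, Stmn2, Nefl and Gap43 lie furthest to the left.

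The gene of the receptor RET did not pass, while its co-receptor gene Gfra1 and the ligand genes Gdnf and Nrtn fell. The differences among these genes were not tested. Ret (chromosome 6, 118151745 to 118197718) had 24.7, 26.5 and 26.9 FPKM in NEC and 25.2, 26.4 and 26.7 in control, so the groups overlapped throughout. It had the highest FPKM of the 33 genes in both groups, with means of 26.0 ± 1.17 in NEC and of 26.1 ± 0.760 in control (n = 3 each, ± SD), against 0.684 ± 0.283 in NEC and 1.76 ± 0.442 in control for its co-receptor Gfra1. The log2 difference of Ret was -0.00 (SE 0.08, adjusted p = 0.972, limma). With TMM scaling it was 0.33 and passed as higher (adjusted p = 0.0279), and with quantile normalization its adjusted p was 0.993.

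Gfra1, which binds GDNF and presents it to RET, had 0.424, 0.644 and 0.985 FPKM in NEC and 2.11, 1.92 and 1.27 in control, and fell by 0.72 (SE 0.18, adjusted p = 0.0249, limma). Gdnf (chromosome 15, 7810846 to 7837575) had 0.901, 1.59 and 2.26 FPKM in NEC and 3.21, 3.74 and 2.42 in control, or 56, 106 and 155 fragments against 184, 209 and 144. NEC 3 came close to control 3, and Gdnf passed narrowly (log2 -0.70, SE 0.22, adjusted p = 0.0486, limma). Nrtn, which encodes neurturin, a ligand that acts mainly through GFRA2 (chromosome 17, 56751325 to 56757530), had 6.01, 8.23 and 6.71 FPKM in NEC and 12.3, 12.4 and 12.7 in control, or 104, 153 and 128 fragments against 196, 193 and 210. The groups were clearly separate and Nrtn fell by 0.76 (SE 0.12, adjusted p = 0.00855, limma). The Gdnf call was lost without any 1 library other than NEC 3 (adjusted p up to 0.151), with TMM scaling (0.112), with quantile normalization (0.174), without a filter (0.0862) and at pseudocounts of 0.1 and 0.01 (0.0595 and 0.0616). The Gfra1 call was lost without NEC 2, control 1 or control 2 (up to 0.09) and with quantile normalization (0.122).

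Of the endothelin pair, the ligand gene showed the larger difference in share. Edn3 (chromosome 2, 174760619 to 174784042) had 0.112, 0.165 and 0.313 FPKM in NEC and 1.15, 0.994 and 0.895 in control, so its NEC mean was 19.4% of the control mean. It was too low to be tested. Ednrb, the receptor (chromosome 14, 103814625 to 103844402), had 5.67, 3.97 and 4.06 FPKM in NEC and 6.65, 6.45 and 5.85 in control. NEC 1 was here the highest of the NEC libraries and close to control 3, and Ednrb did not pass (log2 -0.41, SE 0.14, adjusted p = 0.0591, limma). Without NEC 1 its difference was -0.54 and passed (adjusted p = 0.00619). Endothelial cells also carry EDNRB. Of 12 listed endothelial genes, 6 fell and 5 did not pass. Plvap, a protein of vessel pores, rose by 0.40, a call lost without any 1 library other than NEC 1 (adjusted p up to 0.114). Cldn5 fell by 1.19 (adjusted p = 0.00163, limma). Its call held with TMM scaling (0.00225), quantile normalization (0.00112) and any 1 library left out (up to 0.0182). With TMM scaling Pecam1 also stayed lower (0.0173), while the calls of Esam and Cdh5 were lost. Lower endothelial genes were 50.0% of the list, against 30.6% of all tested genes, and numbered 3, 1 and 2 without control 1, 2 and 3. The balance was lost with TMM scaling (3 higher, 2 lower) and quantile normalization (3 higher, 3 lower). The part of endothelial cells in the Ednrb value was not tested.

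Glia genes were near the limit of measurement. All 4 had a mean under 1 FPKM and none was tested. Sox10, the transcription factor of glia and their precursors (chromosome 15, 79154908 to 79165240), had 0.310, 0.507 and 0.707 FPKM in NEC and 1.35, 1.44 and 1.12 in control. Without NEC 1 its mean passed the limit and it was called lower (log2 -0.52, adjusted p = 0.0216, limma). S100b, a calcium-binding protein of glia, had 0.159, 0.408 and 0.722 FPKM in NEC and 0.906, 1.24 and 0.873 in control, only 4, 11 and 20 fragments against 21, 28 and 21. Gfap, the filament that reactive glia raise (chromosome 11, 102887336 to 102900912), went the other way, with 0.611, 0.279 and 0.226 FPKM in NEC and 0.0811, 0.0971 and 0.117 in control. It was the 1 listed gene whose NEC libraries all lay above the controls, and a long noncoding gene is annotated on its other strand. Erbb4, a neuregulin receptor, was at 0.00463 to 0.00864 FPKM in NEC and 0.00484 to 0.0452 in control, too low to compare.

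Counting the genes under 1 FPKM together, 10 of the 12 had a mean of at least 0.1 FPKM. In 8 of these 10 all NEC libraries lay below all controls, in Gfap they lay above, and Dbh overlapped. Among all genes with a mean of 0.1 to 1 FPKM, 41.7% lay below and 2.42% above. A test with no filter called 20 of the 33 genes lower, with 15.3% of all genes lower.

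All 3 pacemaker cell genes fell, with a median log2 difference of -1.02. Kit, the receptor that interstitial cells of Cajal need to survive (chromosome 5, 75574916 to 75656722), had 2.49, 2.44 and 3.06 FPKM in NEC and 7.07, 6.59 and 5.57 in control. The NEC libraries were alike, NEC 1 included, and stood at 41.5% of the control mean (log2 -1.02, SE 0.12, adjusted p = 0.00505, limma). Etv1, a transcription factor that keeps the pacemaker state downstream of KIT (chromosome 12, 38779380 to 38870484), had 0.345, 0.404 and 0.696 FPKM in NEC and 1.71, 2.69 and 2.39 in control. It was at 21.3% of the control mean, the lowest share of the tested genes (log2 -1.13, SE 0.16, adjusted p = 0.00692, limma). Ano1, the chloride channel of the slow waves (chromosome 7, 144588549 to 144751974), had 1.31, 1.95 and 2.80 FPKM in NEC and 3.90, 4.16 and 3.48 in control (log2 -0.71, SE 0.19, adjusted p = 0.0287, limma). Its call was lost without NEC 2 or any 1 control (up to 0.098), with TMM scaling (0.0628), with quantile normalization (0.084) and without a filter (0.053).

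Mast cells also carry KIT. The 11 other mast cell genes listed were all under 1 FPKM and summed to 0.647, 0.844 and 1.03 FPKM in NEC and 2.57, 3.72 and 1.83 in control, with Fcer1a at 0 in all libraries. Epithelial cells also carry ANO1 in some tissues, and of 14 epithelial genes Vil1 and Krt20 rose and the keratin gene Krt19 fell. The part of these cells in the Kit and Ano1 values was not tested.

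Further lists, chosen with earlier results of these data known, are read against the 30.6% of all tested genes that fell, the 7.69% that rose and their median of -0.26. Counts of any list in another setting are read against the share of all genes lower in that setting. It was 14.1% with TMM scaling, 15.1% with quantile normalization, and 33.5%, 18.7% and 33.8% without NEC 1, 2 and 3. Without control 1, 2 and 3 it was 6.73%, 5.9% and 12.7%. Of 36 tested neuron genes beyond the 33, 25 fell and 0 rose, with a median log2 difference of -0.71. Tubb2b, a tubulin of young neurons, had 15.1, 15.8 and 14.2 FPKM in NEC and 27.3, 29.3 and 25.8 in control, with no library standing apart (log2 -0.83, adjusted p = 0.00404, limma). Cplx2, a regulator of vesicle release, fell by 1.54 and Nsg1, an endosomal protein of neurons, by 0.90. Nos1, which makes nitric oxide in relaxing neurons, fell by 0.65 (adjusted p = 0.0195, limma). The peptide genes Nmu and Sst fell by 1.33 and 0.81 (adjusted p = 0.0148 and 0.0202). Penk, Gal, Tac1 and Cartpt did not pass, at -0.51, -0.54, -0.35 and -0.07 (adjusted p = 0.11, 0.273, 0.222 and 0.718). Nos1 and these peptide genes were chosen after their values were seen. The Nos1 call was lost with quantile normalization and without NEC 2 or any 1 control (largest adjusted p = 0.0734). The Nmu call was lost without control 1 or control 2 (up to 0.0604). The Sst call was lost with TMM scaling and without NEC 2 or any 1 control (up to 0.0744). With TMM scaling 15 of 34 tested neuron genes were lower, and 15 of 37 without NEC 2. Without control 1, 2 and 3 it was 5 of 34, 5 of 33 and 9 of 35.

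Glia and Schwann cell genes beyond the 33 had 5 of 12 tested lower and 0 higher, with a median of -0.44, which is 41.7% of the list against 30.6% of all tested genes, and not far from their median of -0.26. TMM scaling left 4 lower with a median of -0.16. The 5 lower on the deposited scale included Ngfr, the low-affinity neurotrophin receptor (log2 -1.23), and Aqp4, a water channel (-1.44). The others were Fabp7, a fatty acid-binding protein of glia (-0.88), the myelin gene Pmp22 (-1.17) and the neuregulin receptor gene Erbb3 (-0.45). Erbb3 is also an epithelial gene and had 60.3, 77.7 and 63.2 FPKM in NEC and 91.6, 88.4 and 94.1 in control, far above the glia markers. Its call was lost without NEC 3 or any 1 control (largest adjusted p = 0.0918) and with TMM scaling, and that of Pmp22 without NEC 2 or any 1 control (up to 0.0799). When any 1 control was left out, 3 of the glia and Schwann cell genes passed.

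Pacemaker cell genes beyond the 33 had 15 of 20 tested lower and 0 higher, with a median of -0.73. The list is not limited to genes of pacemaker cells alone, and the part of other cells in its values was not tested. Ryr3, a calcium release channel, had 1.10, 1.27 and 1.33 FPKM in NEC and 2.66, 2.82 and 2.43 in control (log2 -0.70, adjusted p = 0.00784, limma). The store channel gene Itpr1 fell by 0.99, Cd34, a surface protein of interstitial and vessel cells, by 1.11 and the T-type calcium channel gene Cacna1h by 0.63, the calls of Cd34 and Cacna1h being lost without control 2 (adjusted p = 0.0514 and 0.0562). With TMM scaling 11 were lower and the bicarbonate transporter gene Slc4a4 was higher (0.47), and 2 were lower without control 2, 5 without control 1 and 9 without control 3.

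Among genes of RET and endothelin signalling and of enteric nervous system development, 21 of 25 tested fell and 0 rose, with a median of -0.80. Hoxb5, a positional factor that regulates Ret in the mouse, had 1.02, 1.27 and 2.10 FPKM in NEC and 6.00, 6.57 and 7.34 in control (log2 -1.65, adjusted p = 0.00352, limma). Bmp4, a growth factor that shapes enteric ganglia, fell by 1.38, Edn1, endothelin 1, by 1.36 and the transcription factor gene Tcf4 by 0.74. Gfra2, the neurturin co-receptor, was at 0.631, 1.70 and 1.77 FPKM in NEC and 2.49, 2.12 and 2.06 in control and did not pass (log2 -0.48, adjusted p = 0.121). Gfra2 was named after its values were seen. With TMM scaling 16 were lower and 2 higher, Plxna1 and Tbx3, and 10 were lower without control 1 or without control 2 and 14 without control 3.

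Of 28 listed neurotransmitter receptor genes of the bowel wall, 9 were tested, 5 fell and 1 rose, with a median of -0.70. In 8 of the 9 every NEC library lay below every control, and Vipr1 had the reverse order. Among all tested genes 47.3% lay below and 11.8% above. Vipr2, the VIP receptor of smooth muscle, had 0.252, 0.693 and 0.788 FPKM in NEC and 2.24, 1.91 and 1.58 in control (log2 -0.89, adjusted p = 0.0135, limma). Vipr1, the VIP receptor of the epithelium, had 27.6, 25.4 and 17.3 FPKM in NEC and 13.6, 12.3 and 12.9 in control (log2 0.79, adjusted p = 0.0179, limma). The PACAP receptor gene Adcyap1r1 fell by 0.99 and the nicotinic receptor gene Chrna3, which ganglion cells use, by 0.70, and the serotonin receptor gene Htr3a and the tachykinin receptor gene Tacr2 also fell. The Htr3a call was lost with TMM scaling, with quantile normalization, and without NEC 2 or any 1 control (largest adjusted p = 0.144), and those of Vipr2, Adcyap1r1, Chrna3 and Tacr2 without control 1 or control 2 (up to 0.0721). The Htr3a call was also lost with no filter and at pseudocounts of 0.1 and 0.01, that of Chrna3 with quantile normalization (adjusted p = 0.0581), and that of Tacr2 without control 3 and at a pseudocount of 0.01. The Vipr1 call was lost without NEC 2 or any 1 control (up to 0.0691). In all, 3 receptor genes were lower without control 3, and without control 1 or control 2 none of the receptors passed.

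**Figure D3:**
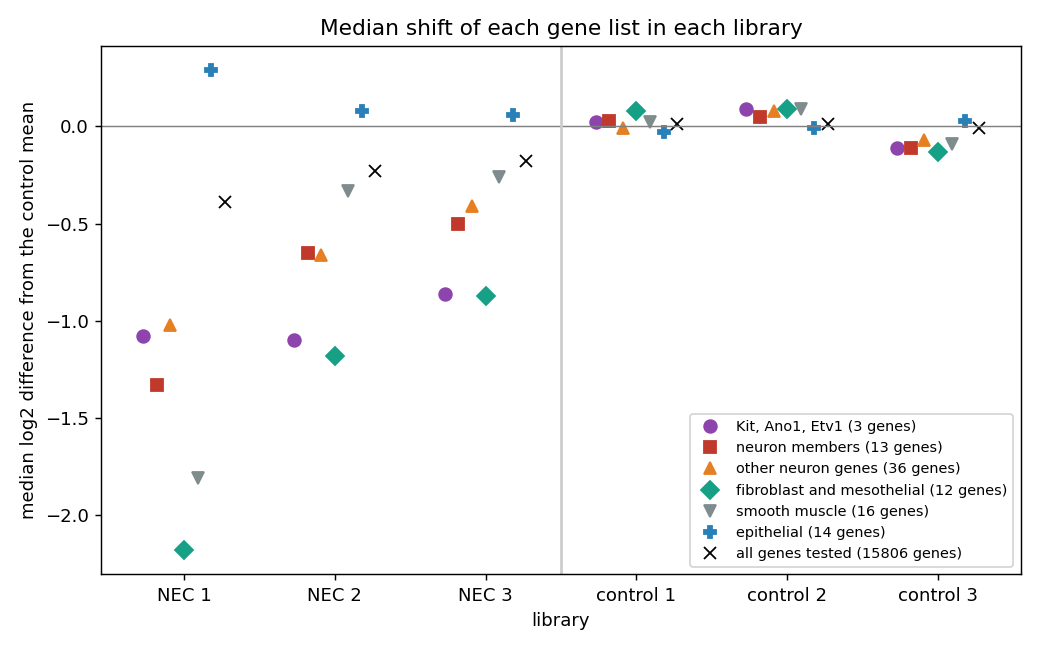
Median log2 difference from the control mean, per library, of gene lists of the bowel wall, NEC libraries left and controls right, 1 mark per list. Kit, Ano1 and Etv1 sit at -1.08, -1.10 and -0.86 in NEC 1, 2 and 3, while smooth muscle genes sit at -1.81 in NEC 1 and at -0.33 and -0.26 in NEC 2 and 3.

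Other cell types of the bowel wall moved with these genes in part. Fibroblast and mesothelial genes had 10 of 12 tested lower, with a median of -1.38, and their sum was 100, 269 and 317 FPKM in NEC and 700, 724 and 577 in control. The count was 5 without NEC 2, and 0, 0 and 2 without control 1, 2 and 3. Per library their median lay at -2.18, -1.18 and -0.87 in NEC 1, 2 and 3. Smooth muscle genes had 1 of 16 lower, their regulator Myocd, with a median of -0.90, and without NEC 1 they had 10 lower with a median of -0.30 (0 without NEC 2 or any 1 control, 4 without NEC 3). The neuron genes among the 33 lay at -1.33, -0.65 and -0.50 in NEC 1, 2 and 3, and all tested genes at -0.39, -0.23 and -0.18. Epithelial genes lay at 0.29, 0.08 and 0.06. The share of the muscle coat and its ganglia in each library is not recorded in the labels, and its part in the neuron, glia and pacemaker values was not tested.

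Endocrine cells of the epithelium also make some neuronal proteins, among them vesicle proteins and peptides. Of 12 tested enteroendocrine genes, 5 fell, among them the hormone genes Sst, Pyy and Sct by 0.81, 1.24 and 0.88, and Gip, which had 4.73, 3.45 and 1.87 FPKM in NEC and 0, 0.191 and 0 in control, rose. The sum of the 22 listed was 42.2, 45.7 and 81.7 FPKM in NEC and 94.4, 94.9 and 77.3 in control, so NEC 3 lay above control 3. The 5 lower, 41.7% of the list against 30.6% of all tested genes, became 1 with TMM scaling, 2 with quantile normalization, 3 without NEC 1, 0 without NEC 2, control 1 or control 2, and 1 without control 3. Macrophage genes had 3 of 9 lower (Adgre1, C1qa and C1qb) and 0 higher, which is 33.3% lower against 30.6% of all tested genes. They had 1 lower and 2 higher with TMM scaling, 0 lower and 1 higher with quantile normalization, 5 lower without NEC 3, and 0 lower without control 1 or control 2. Fat cell genes had 1 of 4 higher, Cidec, and 0 lower, while Adipoq, Plin1, Lep and Retn were at or near 0. The part of endocrine cells in the values of Uchl1, Snap25 and Rtn1 was not tested.

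**Figure D4:**
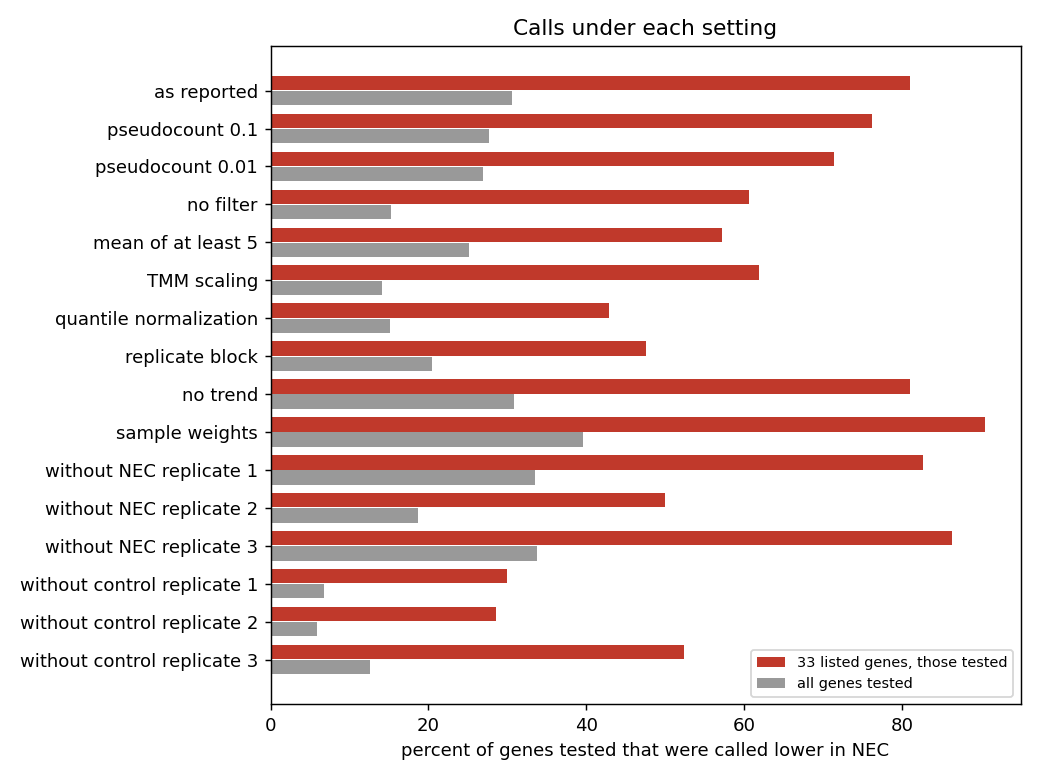
Percent of tested genes called lower in NEC under the reported setting and 15 alternatives, for the 33 listed genes and for all genes. The reported setting gave 81.0% of the 21 tested genes and 30.6% of all genes. Of all genes, 27.7% were lower at a pseudocount of 0.1, 26.9% at 0.01, 25.1% at a mean of 5 FPKM or more, 30.9% with no trend, 39.6% with sample weights and 33.8% without NEC 3.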

How the data were processed

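RNA of terminal ileum was sequenced in 3 NEC and 3 control libraries. Per the labels' protocols, total RNA with an integrity number above 7 was made into paired-end TruSeq libraries. HISAT2, SAMtools 1.3.1 and Cuffdiff with build mm10 are named in the submitters' processing notes, and the annotation and strand setting are not given in the sources used here. No unit is named in the deposited table. Its values were taken to be FPKM from the authors' Cuffdiff run, since small values moved in steps worth 1 fragment for the length of the transcript: in genes with 1 transcript, 86.9% to 98.5% of values below 100 fragments were whole within 0.01. Those steps gave the depth and fragment numbers, which are estimates. Columns with the initial N were taken as NEC libraries, by number.

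Of 55487 identifiers, 55227 were found in GENCODE M21 (also mm10), the source of symbols and coordinates. Groups were compared on log2(FPKM + 1) in the 15806 genes whose mean reached 1 FPKM. The model was fitted with limma 3.58.1 (R 4.3.3), with a trend of variance on level and group as its single term. The Benjamini-Hochberg adjustment ran over all of these, and calls had an adjusted p under 0.05. On this scale the change of a gene with a low FPKM comes out too small. An exact permutation test of 3 against 3 cannot go below p = 0.1 and was not used. The test was tested on simulated data.

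The 33 genes and the 13 other lists were chosen with earlier results of these data known. All 33 are given. From each other list the rule names up to 4 genes with the smallest p and up to 2 called against the list's direction, and 1 gene that it names is not reported here. There were 15 alternatives: each library left out, sample weights, no trend, a replicate block, quantile normalization, TMM scaling (trimming 30% of log ratios and 5% of levels), a minimum mean of 5 FPKM, no minimum, and pseudocounts of 0.1 and 0.01. Upstream sequences were RefSeq's for GRCm38.p6. Python 3.11.15 and matplotlib 3.10.9 drew the figures.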

Additional observations from a re-analysis of the deposited data

How the results depend on the processing

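Of the 15 alternatives, none made any of the 21 tested genes of the neuron, glia and pacemaker set higher except TMM scaling, where 1, Ret, was higher at 0.33. The 17 lower became 4 at a minimum mean of 5 FPKM, where 7 were tested, 9 with quantile normalization, 10 with the replicate number as a block, and 6 to 19 with 1 library left out. Same-numbered libraries did not deviate together (correlations of -0.05, -0.01 and -0.07), so the numbers do not pair them. With the block 856 of all genes were higher and 3230 lower. The median of the 21 genes was -1.11 and -1.13 at pseudocounts of 0.1 and 0.01, -0.37 with quantile normalization and -0.86 to -0.54 with 1 library left out. That of all genes was -0.11 with no filter, -0.15 at a minimum mean of 5 FPKM, 0.01 with TMM scaling, 0.00 with quantile normalization and -0.30 to -0.21 with 1 library left out. Why the counts and medians differed between settings was not tested.

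At that minimum mean of 5 FPKM fewer genes were tested. Lower were 9 of 11 other neuron, 2 of 3 other glia and 6 of 10 other pacemaker genes. So were 6 of 8 RET, endothelin and development genes, 0 of 3 receptor genes and 1746 of all 6950 genes (25.1%). TMM scaling gave 15 other neuron genes lower, 1 other pacemaker gene and 2 development genes higher (Tbx3 turned to 0.28), and 2659 of all genes higher and 2214 lower. Quantile normalization gave 13 other neuron and 3 receptor genes lower, 1 each of the other neuron, other pacemaker and development genes higher (Stx1a, Slc4a4 and Nrg1), and 2202 of all genes higher and 2387 lower. Sample weights gave 1 other pacemaker gene, 1 development gene and 1831 of all genes higher. No filter gave 11 other glia genes lower, and a pseudocount of 0.01 gave 3 receptor genes lower. With 1 library left out the genes lower ranged from 5 to 26 (other neuron), 3 to 5 (other glia), 2 to 16 (other pacemaker), 10 to 21 (development), 0 to 6 (receptors) and 917 to 5378 (all genes), and those higher from 0 to 1 (receptors) and 471 to 1566 (all genes).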
